A study of Mus musculus with 156 samples.

Results

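Gfap, Vim, Nes, Nefl, Nefm, Krt7, Krt8, Krt18 and Krt19 are 9 intermediate filament genes that were followed in mouse embryonic stem cells in which the long noncoding RNA Firre was removed or induced. They were picked by name as the astroglial, neural and simple epithelial filament genes, out of 40914 genes in the deposited table, and earlier results of these data were known when they were picked, among them higher Gfap and Krt18 in the long course of the KO transgene line. All 9 passed the filter on low counts in both time courses, with 17565 genes tested in the long and 18009 in the short course. The study asked how induced Firre changes transcription, with and without the endogenous gene. Its 156 libraries came from 4 lines, and each genotype was 1 line. The WT control was WT, the WT transgene line carried an inducible Firre transgene in the WT, the KO control was a Firre KO, and the KO transgene line carried the inducible transgene in the Firre KO. All lines were grown in serum and LIF with PD0325901 (which blocks MEK) and CHIR99021 (which blocks GSK3), and received doxycycline at 1 ng/µL, controls included, except at 0 min. The long course had 5 times (0, 720, 1440, 2880 and 5760 min) with 3 replicates, and the short course had 12 times from 0 to 330 min in steps of 30 min with 2 replicates. The labels do not say whether replicates were separate cultures, so p-values measure the spread between these samples, which may be technical.

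Intermediate filaments are rope-like polymers that give cells mechanical strength, and different cell types build them from different members of 1 gene family. Gfap encodes the filament protein of astrocytes, Vim (vimentin) that of mesenchymal and many dividing cells, and Nes (nestin) a partner of vimentin in neural progenitors. Nefl and Nefm encode the light and medium neurofilament proteins of neurons. Keratins polymerise only as pairs of a type II and a type I protein: Krt7 and Krt8 are type II, Krt18 and Krt19 type I, and Krt8 with Krt18 is the first keratin pair of the early embryo and of simple epithelia.

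The total count of a library ranged from 18961799 to 47948630 in the long and from 19013652 to 37195019 in the short course. Firre followed the labels: its level in TPM, a read share corrected for transcript length, was 19.2 to 32 in WT control and 0.235 to 2.02 in KO control libraries. It reached 1240 in the WT transgene and 471 in the KO transgene line in the short course, and 121 and 50.8 in the long course. At 0 min of the long course Firre was already higher in each transgene line than in its control. The log2 differences were 0.31 ± 0.04 in the WT (adjusted p = 6.68e-08) and 1.35 ± 0.28 in the KO background (adjusted p = 6.81e-04, both edgeR). At 0 min of the short course they did not pass (adjusted p = 0.962 and 0.817, edgeR on counts). In TPM the WT transgene line was still above its control there, at 41.4 to 45.5 against 22.9 to 30.2. The KO lines overlapped, at 1.38 to 1.94 TPM with and 1.09 to 1.62 TPM without the transgene. For Firre in the WT background, TPM and counts thus differ. The summed level of 8 stem cell markers was 6461 to 9851 TPM in every library. Of 9 fibroblast or feeder markers, 8 stayed under 1 TPM in all libraries of all lines. In bulk samples, fewer cells that express a gene and less RNA of it per cell cannot be told apart. The third WT control replicate at 1440 min stood apart from the rest by a high level of small structural RNAs. Without it, 35 of 36 long-course calls on the 9 genes were kept, leaving aside the contrasts known when they were picked, the exception being the Nefm difference between the control lines.

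In mm10 with GENCODE M21, Gfap lies at chr11:102887336-102900912 (minus strand), Vim at chr2:13573927-13582826 (plus), Nes at chr3:87971078-87980451 (plus), Nefl at chr14:68083863-68089095 (plus) and Nefm at chr14:68082590-68124846 (minus). Krt7 lies at chr15:101411043-101430313 (plus), Krt8 at chr15:101996698-102004482 (minus), Krt18 at chr15:102028180-102032027 (plus) and Krt19 at chr11:100140810-100148665 (minus). The kit does not mark strand, and short exon overlaps with antisense partners exist for Krt7 (77 bases with Gm671) and Krt8 (101 bases with Gm36026), whose highest levels in any library were 0.0877 and 0.0694 TPM. The printed stretches show where the genes discussed first are read from. Krt8 and Krt18 lie next to each other on chromosome 15 on opposite strands, 23697 bases apart with no protein-coding gene between them, and Gfap had the largest fold change in response to the transgene among the 9 genes. Promoter windows of 250 bases before the start site came from RefSeq (GRCm38.p6), which matched 6 of the 9 genes. Where a window runs into a GENCODE exon, only the bases before that exon are printed, 5′ to 3′ on the strand of the gene. The Gfap window holds no exon base and is printed whole; it precedes the RefSeq start and lies inside the GENCODE span of the gene, which a longer transcript extends upstream. The words searched on both strands were the TATA box (TATAAA), the AP-1 word (TGANTCA), the STAT word (TTCNNNGAA), the CCAAT box (CCAAT), the GC box (GGGCGG), the GATA word (AGATAA) and the TEAD word (GGAATG). They are held by 12.4%, 6.75%, 7.02%, 33.8%, 32.7%, 9.99% and 12.6% of 32851 promoter windows of the same length. Capitals mark the only match in the printed stretches.
Gfap, chr11:102897201-102897450, minus strand: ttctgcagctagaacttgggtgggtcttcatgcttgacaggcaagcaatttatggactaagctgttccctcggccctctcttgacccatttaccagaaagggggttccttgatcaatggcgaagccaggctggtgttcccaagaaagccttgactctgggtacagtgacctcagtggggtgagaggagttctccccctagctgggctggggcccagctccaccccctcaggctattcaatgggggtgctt
Krt8, chr15:102004483-102004592, minus strand: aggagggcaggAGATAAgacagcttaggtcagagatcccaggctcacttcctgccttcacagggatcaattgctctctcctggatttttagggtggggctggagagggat
Krt18, chr15:102027966-102028179, plus strand: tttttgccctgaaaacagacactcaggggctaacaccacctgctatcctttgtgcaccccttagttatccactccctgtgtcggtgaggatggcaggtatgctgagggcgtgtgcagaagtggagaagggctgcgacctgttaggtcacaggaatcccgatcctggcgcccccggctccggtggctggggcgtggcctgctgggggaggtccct
The words did not overlap in these stretches. A match describes the letters and not binding.

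Vim was the most abundant of the 9 genes and Gfap the least. In the long course the median level over 60 libraries was 71.6 TPM for Vim, 17.8 for Nefl, 11 for Krt8, 9.83 for Krt18, 3.83 for Nefm, 3.49 for Nes, 1.32 for Krt19, 0.663 for Krt7 and 0.345 for Gfap. The short course gave the same order, from 75.6 TPM for Vim to 0.275 TPM for Gfap. Vim lay above Nefl, and Nes above Krt19, in all 60 long-course libraries, while the other neighbours in the order crossed in some. Nefl lay above Krt8 in 45 of 60 libraries, Krt8 above Krt18 in 43, Krt18 above Nefm in 57, Nefm above Nes in 35, Krt19 above Krt7 in 46 and Krt7 above Gfap in 44. In the short course the closest neighbours were Krt7 and Gfap (54 of 96 libraries) and Krt8 and Krt18 (60 of 96). The counts behind the low genes were small, 1 to 146 per library for Gfap, 7 to 159 for Krt7 and 13 to 108 for Krt19. Because TPM divides by the length of the transcripts that reads were assigned to, TPM and count need not rank alike at such depth: for Gfap in the WT control at 720 min, replicate 1 had 15 counts and 0.323 TPM, and replicate 2 had 13 counts and 0.463 TPM. All tests used the counts.

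**Figure D1:**
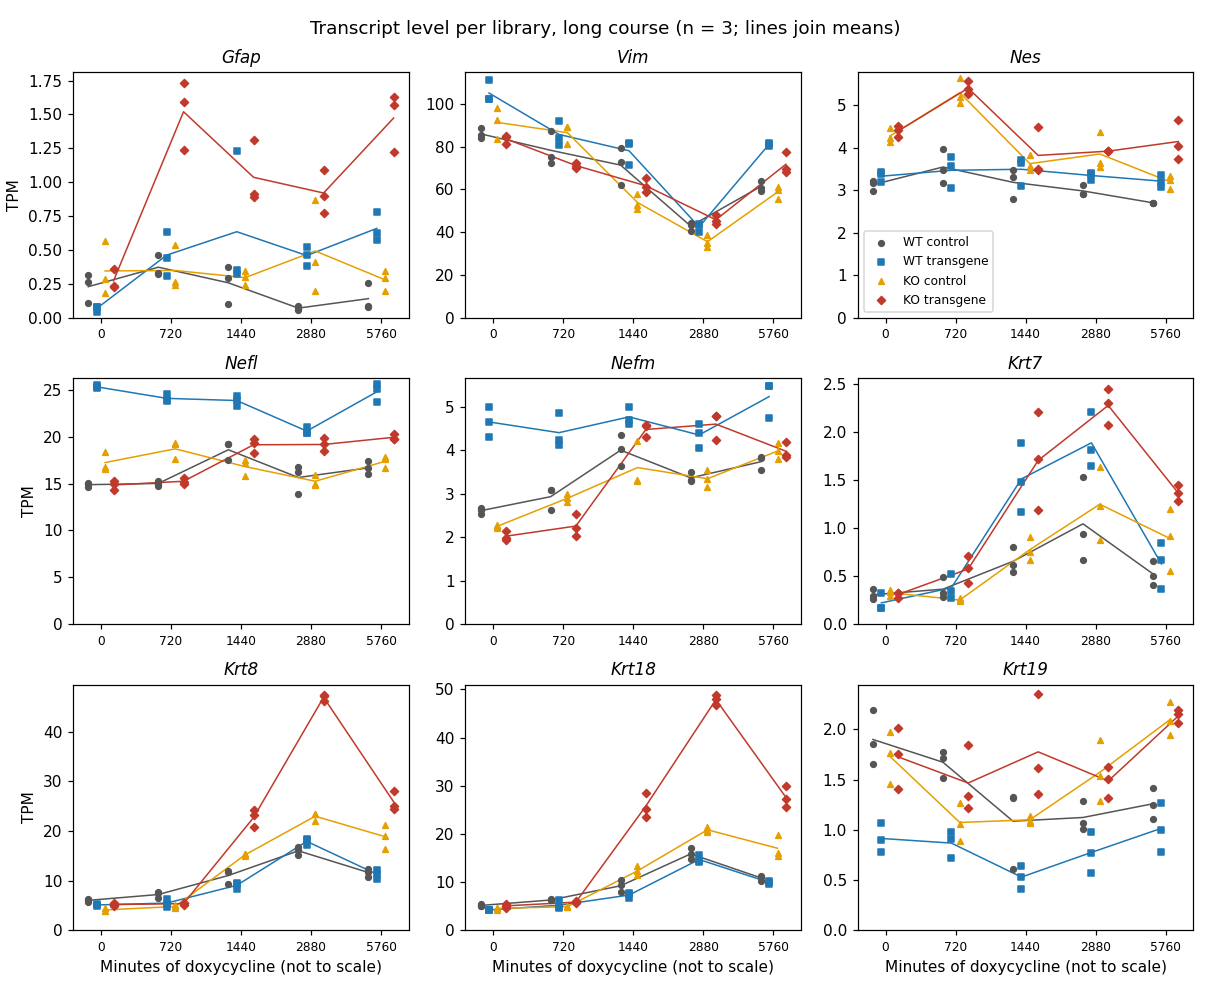
TPM of each of the 9 genes in every long-course library (points, 3 per line and time) against minutes of doxycycline, with lines joining the means. Gfap of the KO transgene line rises to between 1.24 and 1.73 TPM at 720 min, and Krt8 and Krt18 of that line reach 46.2 to 48.8 TPM at 2880 min. Vim falls in all 4 lines to 2880 min.

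Gfap, the astrocyte filament gene, was higher after induction of the transgene in both backgrounds and in both courses. In the KO transgene line it was at 0.356, 0.223 and 0.237 TPM (21, 19 and 18 counts) at 0 min and at 1.59, 1.24 and 1.73 TPM (137, 83 and 84 counts) at 720 min. The KO control was at 0.242, 0.537 and 0.265 TPM (11, 20 and 10 counts) at 720 min. The KO transgene libraries of 720 min all lay above those of the control, as they did at 1440 and 5760 min, while at 2880 min the groups overlapped, with 1 KO control library at 0.871 TPM. A response, here and for every gene that follows, means how much further a transgene line moved from its own 0 min than its control did. The Gfap response in the KO background was a log2 fold change of 2.82 ± 0.37 (SE) at 720 min, 1.86 ± 0.36 at 1440, 1.79 ± 0.37 at 2880 and 2.42 ± 0.36 at 5760 min. This contrast was known when the genes were picked, so its values are a description and no test is given for it.

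The WT transgene line gave a response of its own, from lower counts. Gfap was at 0.0447, 0.0803 and 0.0773 TPM (3, 7 and 7 counts) at 0 min and at 0.575, 0.777 and 0.625 TPM (49, 54 and 51 counts) at 5760 min. The WT control had 0.106, 0.266 and 0.314 TPM at 0 min and 0.252, 0.0814 and 0.0871 TPM at 5760 min. The transgene line began below the range of its control, a difference that did not pass (-0.76 ± 0.40, adjusted p = 0.259, edgeR), and ended above it in all 3 libraries. In TPM it overlapped with the control at 720 min (0.31 to 0.634 against 0.323 to 0.463) and at 1440 min (0.321 to 1.23 against 0.102 to 0.373). At 2880 min it lay above. The response was 3.25 ± 0.50 at 5760 min (adjusted p = 2.89e-05, edgeR quasi-likelihood F test over the 4 times, adjusted by Benjamini-Hochberg across all tested genes), after 2.17 ± 0.49 at 720, 2.54 ± 0.52 at 1440 and 2.79 ± 0.55 at 2880 min. It had the same direction in 12 of 12 libraries. Such tallies, here and below, set every library against the same 0 min means, so the libraries in them are not independent of each other.

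In the short course Gfap rose within hours in both transgene lines. The WT transgene line had 0.194 and 0.0526 TPM (4 and 4 counts) at 0 min, 0.64 and 0.886 TPM (36 and 37 counts) at 180 min and 1.77 and 1.5 TPM (98 and 88 counts) at 330 min. The WT control stayed between 0.0146 and 0.369 TPM (1 to 8 counts) over all 24 libraries. The mean response over the 11 times after 0 min was 3.38 ± 0.53 (adjusted p = 1.68e-10, edgeR spline F test). Each time was also fitted on its own, an alternative chosen after seeing the data. The WT-background response was 3.11 ± 0.74 at 150 min (adjusted p = 0.16) and first passed at 180 min (3.86 ± 0.73, adjusted p = 0.00222). It passed at each later time, with 5.02 ± 0.72 at 330 min (adjusted p = 2.27e-06, all edgeR). With so few counts at 0 min, the size of these fold changes is less certain than their direction.

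The KO transgene line had 0.0576 and 0.162 TPM (3 and 8 counts) at 0 min, 1.25 and 1.43 TPM (56 and 71 counts) at 210 min and 1.41 and 2.04 TPM (87 and 146 counts) at 330 min. Its control also rose, from 0.278 and 0.11 TPM (6 and 7 counts) to 0.55 and 0.715 TPM (28 and 25 counts) at 330 min. The rise of the KO control passed the test (0.78 ± 0.29 as a mean over the course, adjusted p = 1.03e-06), and the WT control did not pass (adjusted p = 0.661, both edgeR spline F tests). Whether the control lines differ in this change was not tested. The KO-background response over and above that control was 1.65 ± 0.43 (adjusted p = 2.02e-06, edgeR spline F test), and without replicate 1 it no longer passed (1.22 ± 0.54, adjusted p = 0.134). Among single times it passed at 270 min (2.58 ± 0.65, adjusted p = 0.0398) and at no other. From 210 to 330 min, both libraries of each transgene line lay above both libraries of its control at every time.

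**Figure D2:**
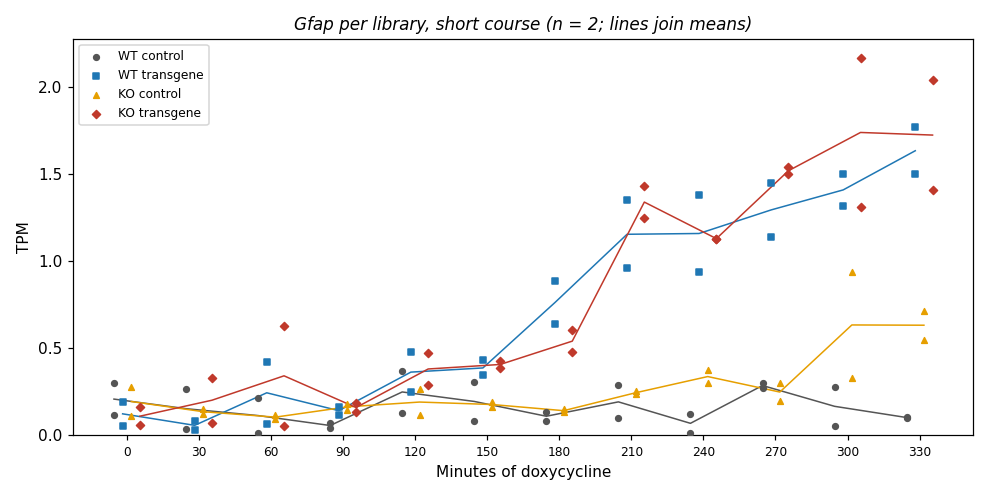
Gfap in TPM in every short-course library (points, 2 per line and time) against minutes of doxycycline, with lines joining the means. Both transgene lines stand above both controls from 210 min on, and the KO control reaches 0.55 and 0.715 TPM at 330 min.

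Other astroglial genes did not follow Gfap as a group. Of 10 markers, Aqp4, S100b, Slc1a2, Sox9, Nfia and Fabp7 were under 1 TPM in every library of every line. The summed level of the 10 was 52.2 to 77.5 TPM in the long course and 60.4 to 96.7 TPM in the short course, most of it Gja1, a gap junction gene that stem cells express, at a median of 52.2 TPM. Between 150 and 180 min the mean sum fell in every line. It went from 86.9 to 81.3 TPM in the WT control and from 94.7 to 83.9 in the WT transgene line. In the KO control it went from 79.9 to 69.1 TPM and in the KO transgene line from 72.9 to 68.9. The cause of this fall was not tested. In the WT background over the long course 1 of the 5 markers tested passed, Gja1 with a fall (-0.30 ± 0.05 at 2880 min, adjusted p = 9.39e-06, edgeR), where 9.79% of all genes passed. In the KO background 2 of the 5 passed, where 11.5% of all genes did. Gja1 was higher by 0.24 ± 0.05 at 2880 min and Aldoc, a glycolytic enzyme gene, lower. Marker lists were chosen with earlier results known, so nothing is read from that count. Over the short course 0 of 6 passed in either background, with 0.7% of all genes passing in the WT and 1.82% in the KO background. Of 8 stem cell markers, 3 passed in both short-course responses, Nanog, Sox2 and Klf4, and all 3 were lower. In the WT-background long response Klf4 was higher (0.26 ± 0.05 at 1440 min, adjusted p = 3.73e-09) and Sox2 lower (-0.19 ± 0.04 at 720 min, adjusted p = 0.00664, both edgeR F tests). In the KO-background long response 5 of the 8 were past the threshold, all lower, and nothing is read from that count. The part of stem cell markers in the Gfap values was not tested.

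Krt8 and Krt18, the simple epithelial pair, rose over the long course in every line, control lines included, and went furthest in the KO transgene line. Krt8 in the WT control went from 6.03, 6.28 and 5.77 TPM at 0 min to 16.7, 16.1 and 15.2 TPM at 2880 min. The KO control went from 3.97, 4.44 and 3.88 to 22, 23.5 and 23.4 TPM. Each set of 3 libraries at 2880 min lay wholly above its set at 0 min. Krt18 in the WT control went from 5, 5.07 and 5.4 TPM to 15.8, 17.1 and 14.7 TPM, and in the KO control from 4.67, 4.3 and 4.65 to 20.4, 21.4 and 20.8 TPM. The log2 changes at 2880 min were 1.45 ± 0.07 for Krt8 (adjusted p = 5.08e-28) and 1.66 ± 0.08 for Krt18 (adjusted p = 8.23e-33) in the WT control. They were 2.38 ± 0.07 for Krt8 (adjusted p = 1.10e-42) and 2.12 ± 0.08 for Krt18 (adjusted p = 1.80e-44) in the KO control, all from edgeR F tests over the 4 times. The controls changed little by 720 min: the largest of these 4 changes was -0.12 ± 0.10, for Krt18 in the KO control. Doxycycline, the age of the medium and the time in culture move together along the control courses and cannot be told apart.

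In the KO transgene line Krt8 was at 5.45, 5.18 and 4.92 TPM at 0 min, at 24.2, 20.7 and 23.2 TPM at 1440 min and at 47.3, 46.2 and 47.2 TPM at 2880 min. Krt18 was at 5.44, 4.69 and 5.08 TPM at 0 min, at 28.6, 23.6 and 25.2 TPM at 1440 min and at 48.8, 46.8 and 48.1 TPM at 2880 min. At 1440, 2880 and 5760 min every library of this line lay above every KO control library for both genes, as they already did by a smaller margin at 0 min. As a description, the response of Krt18 was 0.16 ± 0.13 at 720, 1.02 ± 0.11 at 1440, 1.07 ± 0.11 at 2880 and 0.53 ± 0.11 at 5760 min. That of Krt8 was -0.08 ± 0.13, 0.38 ± 0.11, 0.73 ± 0.11 and 0.12 ± 0.11 at the same times. The KO control and KO transgene lines already differed in Krt8 at 0 min (0.33 ± 0.09, adjusted p = 0.0176, edgeR), a call that was lost without replicate 1 (adjusted p = 0.446) or replicate 3 (adjusted p = 0.0653). Of the 9 genes, 3 passed in that contrast, where 3.54% of all genes did; the others were Nefl (-0.21 ± 0.05, adjusted p = 0.00155) and Vim (-0.16 ± 0.04, adjusted p = 0.015), both lower. Responses subtract these differences.

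In the WT background the pair responded little. Krt8 was at 18.3, 17.2 and 18.2 TPM in the WT transgene line at 2880 min, above the WT control, and the response there was 0.32 ± 0.11 (adjusted p = 0.0218, edgeR F test). The call was lost without any 1 replicate, with adjusted p = 0.195, 0.0904 and 0.118, and the response had this direction in 6 of 12 libraries. Krt18 did not pass (0.11 ± 0.13 at 720 min, adjusted p = 0.717), with 15.6, 14.4 and 14.1 TPM at 2880 min, inside or below the range of the control. In the short course Krt8 lay between 6.38 and 9.47 TPM and Krt18 between 5.86 and 8.89 TPM over all 96 libraries, and neither passed in a control or in response to the transgene.

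Levels of the pair stayed close to each other throughout. The ratio of Krt8 to Krt18 in TPM, which is per transcript length, was 0.834 to 1.32 in the long course and 0.863 to 1.4 in the short course, over all lines. Across the 20 group means of the long course, Krt8 and Krt18 had Pearson r = 0.989, the highest for either gene among 12031 candidate genes. The next most alike were H19 and Peg10, both imprinted genes expressed in extraembryonic tissue, with r = 0.985 and 0.981 to Krt18. Groups share lines and times, so these values are a description. Each keratin has a processed pseudogene, near-identical for Krt8 (98.6% identity over 941 bases) and less alike for Krt18 (90.5% over 1267 bases). These were not analysed here, so how reads were shared between copies is uncertain.

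**Figure D3:**
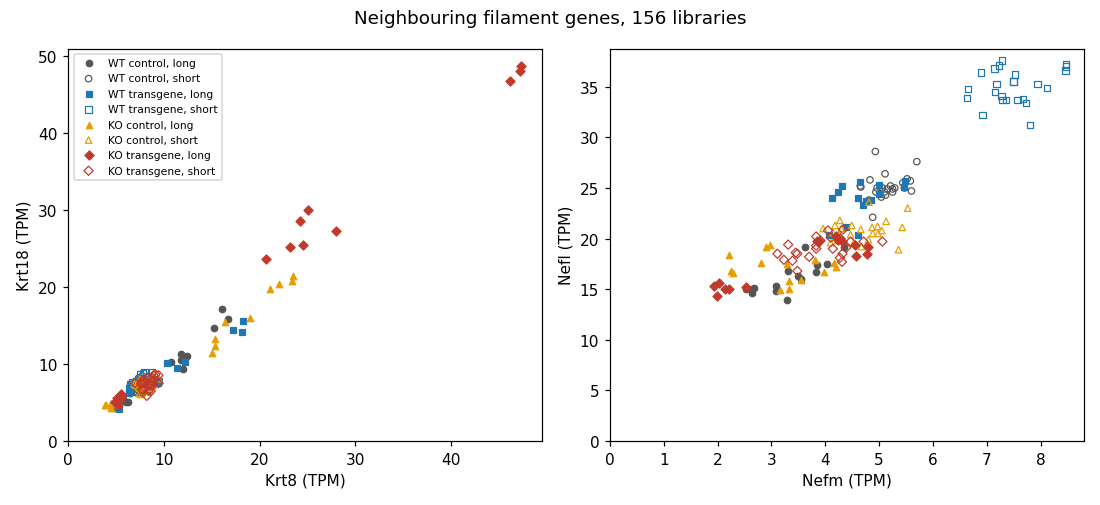
TPM of Krt18 against Krt8 (left) and of Nefl against Nefm (right) in every library. Colour and shape mark the line, filled points the long course and open points the short course. The 3 libraries of the KO transgene line at 2880 min stand alone at the upper right of the keratin plot, and the WT transgene line of the short course at the upper right of the neurofilament plot.

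Krt7, another type II keratin of simple epithelia, was far less abundant but moved with that pair over the long course. In the WT control it went from 0.257, 0.361 and 0.295 TPM at 0 min to 1.53, 0.941 and 0.663 TPM at 2880 min (1.43 ± 0.20, adjusted p = 7.19e-10). In the KO control it went from 0.293, 0.337 and 0.351 to 0.878, 1.64 and 1.23 TPM (1.87 ± 0.19, adjusted p = 3.33e-18, both edgeR F tests). Libraries of 2880 min did not overlap with those of 0 min in either control. Across the 20 group means its nearest gene was Dsc2, a desmosomal cadherin (r = 0.954), followed by Krt8 (0.948) and Krt18 (0.945).

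The WT transgene line had 2.21, 1.65 and 1.81 TPM of Krt7 at 2880 min, all above the WT control. The response was 1.18 ± 0.30 at that time (adjusted p = 0.0331, edgeR F test) and lay in the same direction in 12 of 12 libraries. The call was lost without any 1 replicate (adjusted p = 0.16, 0.25 and 0.128). At 0 min the WT transgene line had been lower than its control (-0.74 ± 0.25, adjusted p = 0.0336, edgeR), which was also lost without any 1 replicate, at adjusted p from 0.11 to 0.177. As a description, the KO-background response was 0.99 ± 0.28 at 1440 min, with 2.21, 1.72 and 1.19 TPM in the transgene line against 0.905, 0.671 and 0.75 TPM in the control.

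Krt19, a type I keratin that can pair with either type II member, fell in both control lines. The WT fall came while Krt8 and Krt18 rose, the KO fall before they did. In the WT control it fell from 2.19, 1.85 and 1.66 TPM at 0 min to 1.32, 0.609 and 1.33 TPM at 1440 min (-0.95 ± 0.19, adjusted p = 6.85e-05, edgeR F test). It fell in the KO control from 1.77, 1.46 and 1.97 TPM to 1.27, 1.06 and 0.891 TPM at 720 min (-0.94 ± 0.18, adjusted p = 1.98e-09, edgeR F test). At 2880 min the change from 0 min did not pass (-0.34 ± 0.17, adjusted p = 0.0858, edgeR). The KO control was at 2.08, 1.94 and 2.27 TPM at 5760 min. The WT transgene line was lower than its control at 0 min, with 0.777, 0.896 and 1.07 TPM (-0.89 ± 0.18, adjusted p = 1.08e-04, edgeR). In the WT background the response did not pass (0.35 ± 0.26 at 5760 min, adjusted p = 0.717, edgeR). As a description, it was 0.81 ± 0.24 at 1440 min and 0.07 ± 0.22 at 5760 min in the KO background.

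Over the long course 7 of the 9 filament genes passed in the WT control, 5 higher and 2 lower, where 54.8% of all genes passed. The KO control had 8 of 9 past the test, 5 higher and 3 lower, where 59.6% of all genes passed. The genes that anchor filaments to junctions changed in the same courses. Of 15 linkers and junction partners, 14 were tested. In the WT control 13 passed, 8 higher and 5 lower, and in the KO control 10 passed, 8 higher and 2 lower. The desmosomal cadherin Dsg2 rose in the WT control by 0.60 ± 0.03 at 1440 min (adjusted p = 1.22e-29) and in the KO control by 0.50 ± 0.03 at 2880 min (adjusted p = 7.27e-28). The desmosomal plaque protein Pkp2 fell in the same lines by 0.61 ± 0.06 (adjusted p = 5.71e-18) and by 0.93 ± 0.05 (adjusted p = 2.39e-30), all from edgeR F tests. The median log2 change of the list was 0.12 in the WT and 0.27 in the KO control, against -0.07 and -0.06 over all genes. In response to the transgene in the WT background 1 of 14 passed, Pkp2 (0.34 ± 0.08 at 1440 min, adjusted p = 0.0136, edgeR), a share of 7.14% beside 9.79% of all genes. In the KO background 6 of 14 passed, 2 higher and 4 lower, beside 11.5% of all genes. The list was chosen with earlier results known, so nothing is read from that count.

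Markers of trophoblast, the first epithelium of the embryo, moved beside the keratins in part. Their summed level over 10 genes in the KO control was 59.2 to 64.1 TPM at 0 min and 73.2 to 76.1 TPM at 2880 min, and in the KO transgene line 62 to 65.4 and 79.6 to 85.7 TPM. In the WT control it was 72.2 to 76.9 and 72.3 to 74.7 TPM. The markers Elf5 and Hand1 were under 1 TPM in every library. Over the long course 7 of 10 passed in each control, beside 59.6% of all genes in the KO and 54.8% in the WT control. The KO control had 5 higher and 2 lower, the WT control 3 higher and 4 lower. Tead4, Cdx2 and Gata3 were higher in both controls, Plet1 and Eomes in the KO control. Tfap2c and Ascl2 were lower in both, Esx1 and Plet1 in the WT control. In response to the transgene in the KO background 6 of the 10 passed over the long course, 4 higher and 2 lower, beside 11.5% of all genes. This list was chosen with earlier results known, so nothing is read from that count. Ascl2, an imprinted trophoblast regulator, was higher there (1.59 ± 0.15 at 2880 min) but was among the lower genes in both controls, where Krt8 and Krt18 rose. In the WT background, where that pair responded little, Ascl2 had a response of 1.37 ± 0.14 at 5760 min of the long course (adjusted p = 2.48e-10, edgeR). Over the short course its response in that background was 0.51 ± 0.18 (adjusted p = 0.0242, edgeR). The part of such cells in the keratin levels was not tested.

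Vim fell over the long course in both controls. It went from 83.8, 85.3 and 88.7 TPM at 0 min to 43.4, 44.3 and 40.7 TPM at 2880 min in the WT control (-0.86 ± 0.05, adjusted p = 1.42e-22). In the KO control it went from 98.1, 92.3 and 83.4 to 38.6, 33.1 and 34.8 TPM (-1.27 ± 0.05, adjusted p = 2.55e-33, both edgeR F tests). At 5760 min the KO control was back at 60.9, 59.7 and 55.5 TPM and the WT control at 64.1, 59.1 and 60.7 TPM, between their levels of 0 and 2880 min.

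The responses of Vim to the transgene had opposite signs in the 2 backgrounds. In the WT background Vim fell relative to the control by 0.32 ± 0.06 on the log2 scale at 2880 min (adjusted p = 7.71e-04, edgeR F test, 11 of 12 libraries). The WT transgene line had started higher, with 111, 102 and 102 TPM at 0 min (0.35 ± 0.04 over the WT control, adjusted p = 3.38e-09), and was at 43.7, 40.1 and 43.4 TPM at 2880 min, overlapping with the control. The response was lost without replicate 2 (adjusted p = 0.21) and in limma on log2(TPM + 1) (adjusted p = 0.052). The KO-background response, as a description, was 0.49 ± 0.07 at 2880 min, with 48.2, 45.4 and 43.7 TPM in the transgene line, all above the KO control.

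In the short course Vim passed in the KO background by its shape over time and not by its mean, which was -0.01 ± 0.07 (adjusted p = 0.00214, edgeR spline F test). The KO transgene line was at 65 and 57.8 TPM at 0 min, at 41.4 and 45.4 TPM at 210 min and at 63 and 52.4 TPM at 330 min. With each time fitted on its own, 5 of all genes passed in this response at 150 min, 735 at 180 min and 30 at 210 min. The cause of that step was not tested. Vim itself passed at none of the times from 180 to 270 min in those fits (adjusted p from 0.277 to 0.566, edgeR). The KO control was at 54.6 and 54.1 TPM at 210 min, and at each time from 180 to 270 min both transgene libraries lay below both control libraries. The call was lost without replicate 1 (adjusted p = 0.302), with 1 coefficient per time (adjusted p = 0.113) and in limma (adjusted p = 0.0604).

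Nes, the partner of vimentin in neural progenitors, changed less. In the KO control it fell by 0.44 ± 0.05 on the log2 scale at 1440 min (adjusted p = 6.06e-14), from 4.14, 4.46 and 4.22 TPM at 0 min to 3.47, 3.83 and 3.58 TPM, and in the WT control it did not pass (adjusted p = 0.651, both edgeR F tests). TPM and counts differed for Nes in the KO control at 720 min. Its 5.05 to 5.64 TPM lay above the 0 min libraries, while the change in counts was 0.02 ± 0.05 (adjusted p = 0.886, edgeR). All 15 WT control libraries lay between 2.7 and 3.98 TPM. In the WT background the response did not pass (0.12 ± 0.08 at 1440 min, adjusted p = 0.639, edgeR). As a description, the KO-background response was 0.27 ± 0.07 at 5760 min.

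The neurofilament genes Nefl and Nefm set the WT transgene line apart before any doxycycline. Nefl was at 25.2, 25.3 and 25.6 TPM in that line at 0 min of the long course and at 15.1, 14.6 and 15 TPM in the WT control. Nefm was at 4.31, 5 and 4.64 TPM against 2.67, 2.63 and 2.52 TPM. The differences were 0.78 ± 0.05 for Nefl (adjusted p = 3.44e-24) and 0.86 ± 0.08 for Nefm (adjusted p = 3.80e-14, both edgeR). For both genes every library of the line lay above every WT control library of the same time, at 5 of 5 long-course and 12 of 12 short-course times. At 0 min of the short course, a contrast added after seeing the data, the differences were 0.51 ± 0.06 for Nefl (adjusted p = 1.75e-09) and 0.59 ± 0.08 for Nefm (adjusted p = 1.14e-06, both edgeR), and 2.93% of all genes passed. Of the 9 genes, 6 passed at 0 min of the long course in this line, where 13.2% of all genes passed: Nefl, Nefm and Vim were higher and Krt19, Krt7 and Krt18 (-0.27 ± 0.09, adjusted p = 0.0362) lower. The Krt18 call was lost without any 1 replicate, at adjusted p from 0.0969 to 0.169.

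Over the long course Nefm rose in both controls, by 0.63 ± 0.08 in the WT (adjusted p = 3.31e-12) and 0.88 ± 0.08 in the KO control (adjusted p = 1.06e-15) at 5760 min, where levels were 3.84, 3.82 and 3.54 TPM and 3.8, 4.16 and 3.98 TPM. Nefl rose in the WT control by 0.39 ± 0.05 at 1440 min (adjusted p = 1.45e-12), to 19.2, 19.2 and 17.5 TPM. In the KO control its change had no fixed direction: the edgeR fit gave 0.09 ± 0.05 at 720 min (adjusted p = 0.0287) and limma on log2(TPM + 1) gave -0.17 ± 0.05 (adjusted p = 1.28e-04). The F test over the short course passed for Nefl in both controls and for Nefm in the KO control with means of -0.02, 0.13 and 0.00, and each of these calls was lost without replicate 1. These were all the calls among the 9 genes in the WT control over the short course (1 of 9, where 21.8% of all genes passed), and in the KO control they joined Gfap (3 of 9, where 13.3% passed).

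The neurofilament responses also had opposite signs in the 2 backgrounds. In the WT background Nefl fell relative to the control by 0.44 ± 0.06 on the log2 scale at 1440 min (adjusted p = 2.84e-08) and Nefm by 0.62 ± 0.11 (adjusted p = 5.79e-05, both edgeR F tests), each in 12 of 12 libraries. The level in the WT transgene line itself moved little, from 25.2, 25.3 and 25.6 to 24.4, 24 and 23.3 TPM of Nefl, while the WT control rose. In the KO background, as a description, Nefl had 19.2, 19.9 and 18.5 TPM at 2880 min in the transgene line against 15.9, 14.9 and 15 TPM in the control (0.54 ± 0.07). Nefm had 4.79, 4.23 and 4.78 TPM against 3.54, 3.16 and 3.33 TPM (0.62 ± 0.12). The short-course responses of both genes did not pass in either background, at adjusted p from 0.134 to 0.987 (edgeR).

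Nefl and Nefm overlap on chromosome 14 on opposite strands, with 1108 exon bases in common. Without strand, reads from that stretch cannot be told apart. The median ratio of Nefl to Nefm in TPM was 4.41 to 5.09 over the lines and courses.

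**Figure D4:**
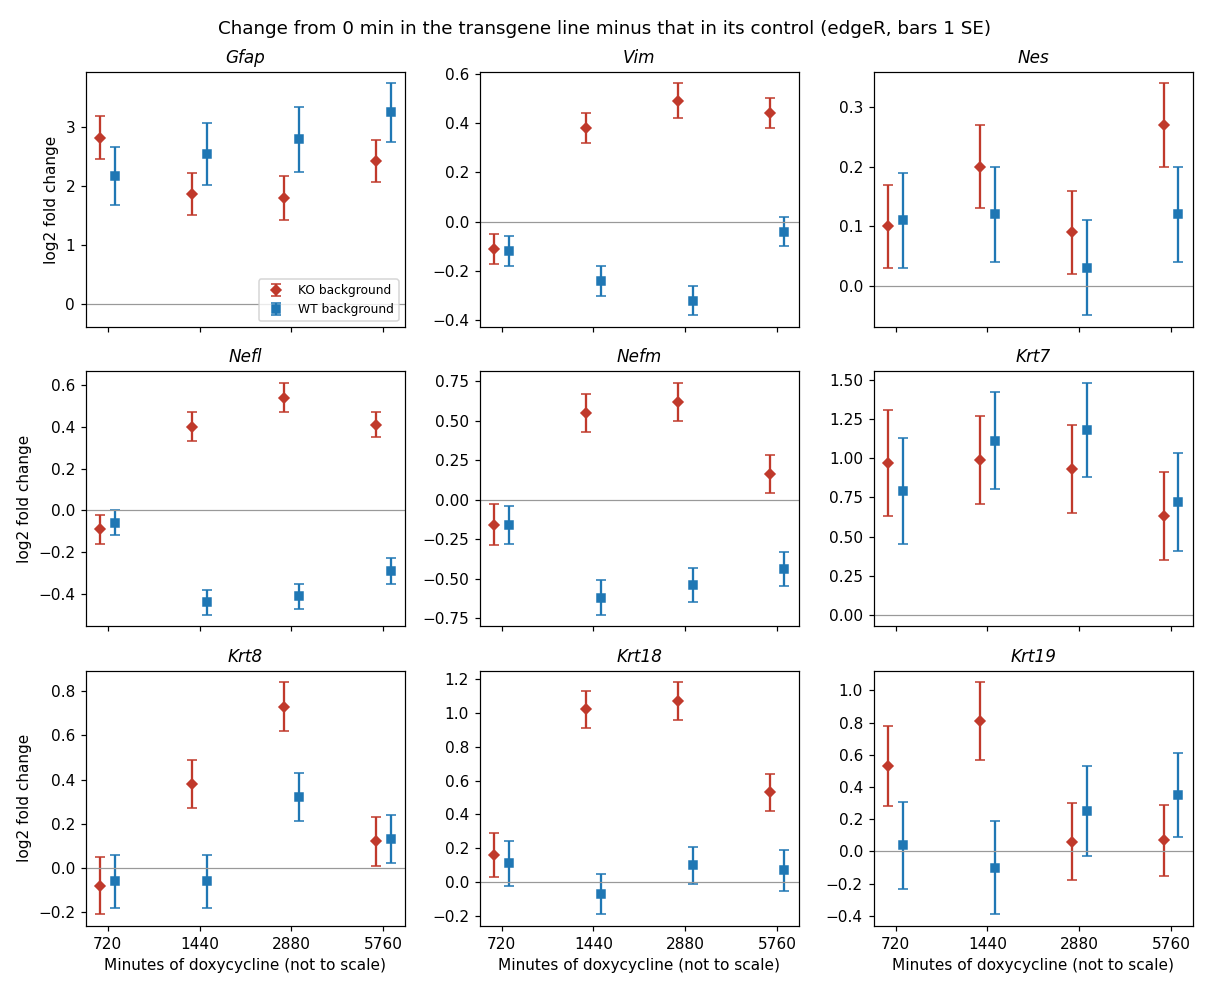
Response to the transgene (log2 fold change, bars 1 SE, edgeR) at 4 times of the long course for the 9 genes, with a scale of its own in each panel. Gfap lies above 0 in both backgrounds at every time, and Vim, Nefl and Nefm lie above 0 in the KO and below 0 in the WT background at 1440 and 2880 min.

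Counted over the 9 genes, the transgene response in the WT background passed in 6 over the long course, 3 higher (Gfap, Krt8, Krt7) and 3 lower (Nefl, Nefm, Vim), where 9.79% of all genes passed. The median log2 response over all 9 was 0.12, against -0.05 over all genes, with each gene taken at the time of its largest change. The difference between the backgrounds passed in 5 genes, Vim, Nefl, Nefm, Krt8 and Krt18, where 5.32% of all genes passed, and since one side of it was known when the genes were picked nothing is read from that count. In the KO background 8 of 9 were past the threshold, all higher, where 11.5% of all genes were, and 5.56% were higher. The genes were picked with this contrast known, so nothing is read from that count. Of 28 other cytoplasmic filament genes, 18 were tested and 1 passed in the WT background, the neuronal filament gene Ina (0.85 ± 0.14 at 5760 min, adjusted p = 2.77e-05, edgeR). Of those 18, 6 passed in the KO-background long course, 4 higher and 2 lower. Among them were Nefh, the heavy neurofilament gene (0.47 ± 0.07 at 1440 min), and the keratin Krt42 (-0.71 ± 0.10 at 1440 min). Nothing is read from that count either, as the list was chosen with earlier results known. In the short course Gfap alone of the 9 passed in the WT background, where 0.7% of all genes passed, and Gfap and Vim in the KO background, where 1.82% did. None of the other 18 filament genes passed in either short-course response by edgeR.

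The KO and WT controls differed in filament levels in both courses, and 4 genes passed both at 0 min of the long course and over the short course with opposite signs. Vim was higher in the KO than in the WT control at 0 min of the long course (0.14 ± 0.04, adjusted p = 0.00642) but lower over the short course (-0.68 ± 0.02, adjusted p = 2.83e-47). Its short-course levels were 50.8 to 69.9 TPM over 24 KO control libraries (median 57.6) and 79.8 to 107 TPM over 24 WT control libraries (median 94.9), with no overlap. Nes was higher at 0 min of the long course (0.49 ± 0.05, adjusted p = 6.74e-13) and lower over the short course (-0.22 ± 0.03, adjusted p = 2.29e-12). Nefl was likewise higher (0.21 ± 0.05, adjusted p = 1.10e-04) and then lower (-0.30 ± 0.02, adjusted p = 1.57e-28). Krt8 was lower (-0.53 ± 0.09, adjusted p = 6.47e-07) and then higher (0.17 ± 0.03, adjusted p = 1.20e-06, all edgeR). The sign of Vim and Krt8 also turned within the long course. KO against WT control was -0.45 ± 0.05, -0.27 ± 0.05 and -0.13 ± 0.05 for Vim and 0.40 ± 0.07, 0.39 ± 0.06 and 0.65 ± 0.07 for Krt8 at 1440, 2880 and 5760 min, at adjusted p of at most 0.0332 (edgeR). Nefl was lower at 1440 min (-0.16 ± 0.05, adjusted p = 0.0121, edgeR), and Nes stayed positive, at 0.13 ± 0.06, 0.25 ± 0.06 and 0.19 ± 0.05. The courses were fitted apart and the difference between them was not tested.

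The 0 min libraries of the short course, compared alone after seeing the data, had the sign of the short-course mean for Vim (-0.61 ± 0.08, adjusted p = 1.39e-07) and Nefl (-0.43 ± 0.06, adjusted p = 4.40e-07, both edgeR). The other 7 genes did not pass there, and 7.51% of all genes did. Gfap and Nefm had the same sign in the long course at 0 min and over the short course. Gfap was higher in the KO control by 0.99 ± 0.31 (adjusted p = 0.00761) and by 1.25 ± 0.15 (adjusted p = 1.23e-11), though not at 0 min of the short course (-0.07 ± 0.53, adjusted p = 0.968, all edgeR). The long-course Gfap call was lost without replicate 2 (adjusted p = 0.0501), without replicate 3 (adjusted p = 0.0941) and in limma (adjusted p = 0.578). Nefm was lower by 0.21 ± 0.09 on the log2 scale (adjusted p = 0.0475) and by 0.14 ± 0.03 (adjusted p = 4.92e-06, both edgeR), the first of which was lost under 9 alternatives. In all, 6 of 9 genes passed at 0 min of the long course, where 35.1% of all genes did, and 6 of 9 over the short course, where 46.6% did.

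**Figure D5:**
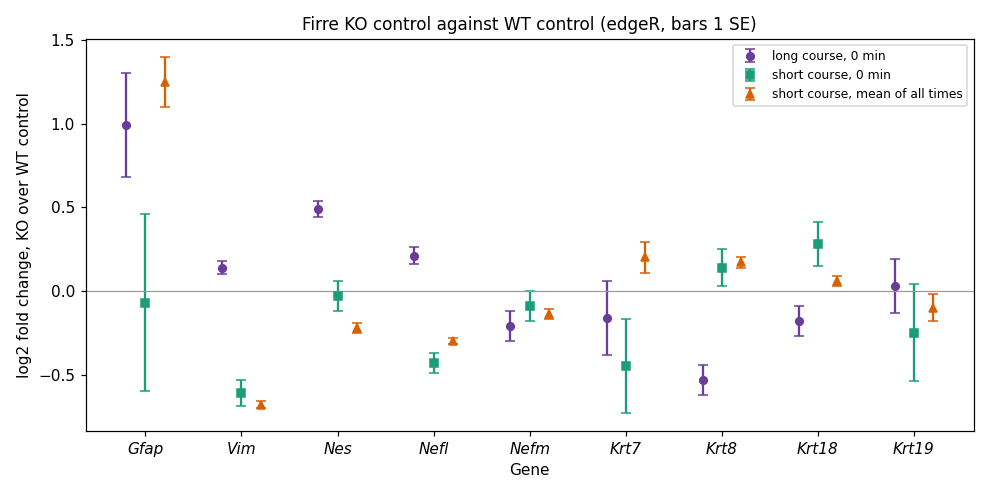
Log2 fold change of the KO over the WT control (bars 1 SE, edgeR) for the 9 genes at 0 min of the long course, at 0 min of the short course and as a mean over the short course. Vim, Nes and Nefl lie above 0 at 0 min of the long course and below 0 over the short course, and Krt8 the other way round.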

How the data were processed

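The 156 libraries were made from poly(A) RNA with a kit that does not mark strand, per the labels' protocols. The authors deposited expected counts per gene (estimated, not all whole) and TPM per gene, made with Salmon 1.5.2 on mm10 per the submitters' processing notes. The deposited expected counts were whole in 76% of values and not normalized. How transcripts were summed to genes is not given in the sources used here. The deposited TPM values summed to 924452 to 947484 per library. TPM described levels, and rounded expected counts served every test. Gene positions and exons came from GENCODE M21 (mm10), in which 40140 of 40914 identifiers matched, and copies were found with BLAST+ 2.17.0 (at least 90% identity over 200 bases).

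Each course was fitted apart with edgeR 4.0.16 in R 4.3.3: filterByExpr (minimum count 10, minimum total 15), TMM, robust quasi-likelihood fits and Benjamini-Hochberg adjustment over all genes tested, at a threshold of 0.05. Long-course models gave each line and time a coefficient, F tests ran over 4 times, and the printed fold change belongs to the time where it was largest. The short course had a natural spline with 3 df per line, and the fold change is the mean over 11 times after 0 min (12 for KO against WT). SE belongs to the printed fold change: it is the size of that change divided by the root of F of a test of it alone. The adjusted p of an F test over several times belongs to those times together. The 0 min and single-time contrasts of the short course, and leaving out 1 library that stands apart, were added after seeing the data. The scripts were tested on simulated data. Alternatives were RLE scaling, no filter, DESeq2 1.42.0, limma 3.58.1 on log2(TPM + 1), each replicate left out, a replicate block, only the lines compared and, in the short course, 1 coefficient per time. The 9 genes and all marker and partner lists were chosen with earlier results of these data known. The text names, outside the 9, the genes of a list with the smallest adjusted p, at most 3 per list and comparison, and by the highest correlation those most alike over the long-course group means, for genes with a mean CPM of at least 1. The directions of the trophoblast genes that passed in the controls are given besides.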

Additional observations from a re-analysis of the deposited data

Results flagged for a closer look

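The long-course response to the transgene is set side by side here for 5 of the 9 genes in the KO and the WT background. Responses in the KO background were known when the genes were picked, so the values are a description with no p, and nothing is read from the number of genes. The difference is the log2 response in the KO background minus that in the WT background, at the time where it was largest. It was 0.81 ± 0.09 (SE) for Vim and 0.95 ± 0.09 for Nefl at 2880 min, and 1.16 ± 0.16 for Nefm, 0.43 ± 0.16 for Krt8 and 1.09 ± 0.17 for Krt18 at 1440 min. These are the genes past the threshold of the edgeR test of the difference, as were 5.32% of all genes. For Vim, Nefl and Nefm the responses had opposite signs at those times, and for Krt18 the WT-background response was -0.07 ± 0.12 at 1440 min. The Krt8 difference was lost without any 1 replicate and in limma on log2(TPM + 1).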

How the results depend on the processing

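Leaving aside the KO-background long response and the difference of the long responses, which the choice of genes bears on, 49 of 99 tests on the 9 genes passed, and 32 of these passed with the same direction in every setting run. The other 50 did not pass; in 5 of them some setting passed, and none both changed sign and passed. Low counts limit Gfap, Krt7 and Krt19, whose fold changes are less precise than those of the other genes. Adjusted p of DESeq2 was not given for Gfap and Krt7 in the WT-background long course and for Gfap in the KO-background short course, and those are left out.

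Directions reversed for 3 small changes. Nefl in the KO control over the long course was -0.08 without replicate 2 and -0.17 in limma. Nefl in the WT control over the short course was 0.01 without replicate 1 and -0.05 without replicate 2. Nefm in the KO control over the short course was -0.00 with RLE, -0.01 without the filter, -0.10 without replicate 2 (0.09 without replicate 1), -0.01 with only the lines compared, -0.03 with 1 coefficient per time and -0.00 in DESeq2.

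Counts of genes past the threshold depended more on the setting, and the cause was not tested. Leaving out 1 replicate gave 248 to 319 genes for the KO transgene line at 0 min (622 with all) and 1090 to 1455 for the WT transgene line at 0 min (2312). It gave 742 to 1271 for the KO-background long response (2024), 297 to 1658 for the WT-background one (1720) and 233 to 880 for their difference (934). In the short course it gave 2252 to 3524 in the WT control (3918), 791 to 1178 in the KO control (2390), 52 to 325 for the KO-background response (328) and 51 to 799 for the WT-background one (126). With limma on log2(TPM + 1) the counts were 3970 for KO against WT control at 0 min (6171 in edgeR), 185 and 912 for the KO and WT transgene lines at 0 min, 752, 701 and 305 for the long responses and their difference, 1422 for the KO control over the short course and 130 for the KO-background short response. With 1 coefficient per time they were 2021 and 1031 in the WT and KO control over the short course and 171 and 46 for the KO- and WT-background short responses. Those responses gave 1131 and 469 without the filter and 105 and 216 with only the lines compared, and the former gave 572 in DESeq2. Without the WT control library that stands apart, the counts were 617 and 2298 for the KO and WT transgene lines at 0 min, 1662 for the WT-background long response and 892 for the difference of the long responses.

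Replicate numbers showed no pairing of the samples in the long course, and the short course could not settle it. With 2 replicates, the deviations within a short-course group mirror each other, so values for the same and for other numbers are not independent. Same-numbered control and other libraries had a median correlation of their deviations of 0.01 in the long and 0.13 in the short course, against -0.02 and -0.13 for other numbers. Of the control libraries, 11 of 30 and 28 of 48 correlated best with their own number. With a replicate block, 49 of 49 calls on the 9 genes in those tests were kept, and the counts of genes were 2212 and 2039 for the KO- and WT-background long responses and 434 and 157 for the short ones.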
